A study of Mus musculus with 2 samples.

Results

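Protein tyrosine phosphatases of the Ptpn and Ptpr families and dual-specificity phosphatases of the Dusp family were compared between cytotoxic T cells, which carry CD8, and helper T cells, which carry CD4. The members were all genes whose symbol starts with Ptpn, Ptpr or Dusp, leaving out Ptprc and Ptprcap, and with at least 1 non-control probe that its transcript accession named. Of 62 such symbols in the RefSeq gene table, 58 had a named probe, out of 17176 named genes on the array. These 58 genes were measured by 92 of 41174 probes and comprised 19 receptor-type (Ptpr), 16 non-receptor (Ptpn), 9 MAP kinase phosphatase and 14 atypical Dusp genes. The symbols without a named probe were Dusp5, Ptpn18, Ptprv and Ptprtos, and they were not analysed here.

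Each cell type was measured on 1 one-colour Agilent mouse array, with Cy3-labelled RNA. The CD8+ array held cytotoxic T cells and the CD4+ array helper T cells, both sorted from the spleen of wild-type mice of the C57B6 strain, with no treatment named beyond the sort. The labels' descriptions call the samples CD8SP and CD4SP. The number of mice, their age and the sort markers are not stated in the labels. With 1 array per cell type there was no replicate check, no test and no p-value. Precision is limited by this number of arrays.

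Tyrosine phosphatases remove phosphate from tyrosine residues and so oppose kinases such as Lck and Zap70, which start signalling from the T cell receptor, and the JAK kinases of cytokine receptors. Receptor-type members span the membrane, and many carry adhesion domains outside the cell. Non-receptor members are intracellular and are guided by SH2, FERM, PDZ or other domains. Dual-specificity phosphatases remove phosphate from tyrosine and from serine or threonine. Those called MAP kinase phosphatases switch off ERK, p38 and JNK, and several are induced by the same pathways and act as negative feedback in activated T cells. The atypical members lack the kinase-docking domain, and some act on RNA or on substrates other than MAP kinases.

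The array carried 45018 spots, of which 58.6% of the non-control spots on the CD8+ array and 63.1% on the CD4+ array were well above background. Signals below are the scanner software's processed signals in arbitrary units, before scaling, each with the error that the software estimated for the spot. Differences are log2 levels of the CD8+ array minus the CD4+ array after each array was divided by its 75th percentile, which was 449.9 on the CD8+ array and 508.4 on the CD4+ array, so that equal signals correspond to a log2 difference of 0.18. Every member probe had 1 spot, and no member spot was saturated. The spread available was technical: differences of replicate spots of a probe had an SD of 0.16 (158 probes), and differences of different probes of a gene an SD of 0.23 over 3972 genes and of 0.39 over the 12 members with several measured probes. Cd8a had a signal of 49982 on the CD8+ array and 535 on the CD4+ array, and Cd4 had 67.1 on the CD8+ array and 307 on the CD4+ array. Of 12 T cell marker genes, 11 had a named probe and all 11 were well above background on both arrays. Markers of other cell types were above background too. On both arrays this held for all 13 B cell markers and all 12 named macrophage and monocyte markers, beside 69.6% of all named genes. The B cell markers ran from 26.6 (Pax5) to 9159 (Cd79b) on the CD8+ array. Some NK cell, neutrophil, and platelet and erythroid markers were above background on neither array.

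Most phosphatase genes had similar levels in the cytotoxic and the helper cells. Well above background on both arrays were 40 of the 58 members (69.0%, against 69.6% of all named genes), and 35 of these 40 differed by less than 2-fold. At least 2-fold higher on the CD8+ array was 1 member, the receptor-type gene Ptprk, a share of 2.5% beside 1.94% of all 11957 genes above background on both arrays. At least 2-fold higher on the CD4+ array were 4 members, Ptpn13, Ptpro, Ptprf and Dusp4, a share of 10% beside 3.83% of all genes. The share at least 2-fold apart in either direction was 5.77% over all genes, beside 5 of the 40 members. These are few genes, and the difference between the shares was not tested. The SD of the differences was 0.83 over the members and 0.54 over all genes. The median difference was -0.05 over the 40 members and 0.02 over all genes, and 19 members were higher on the CD8+ array and 21 on the CD4+ array. Since the samples are RNA of whole sorted populations, fewer cells of a type and less RNA per cell cannot be told apart.

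**Figure D1:**
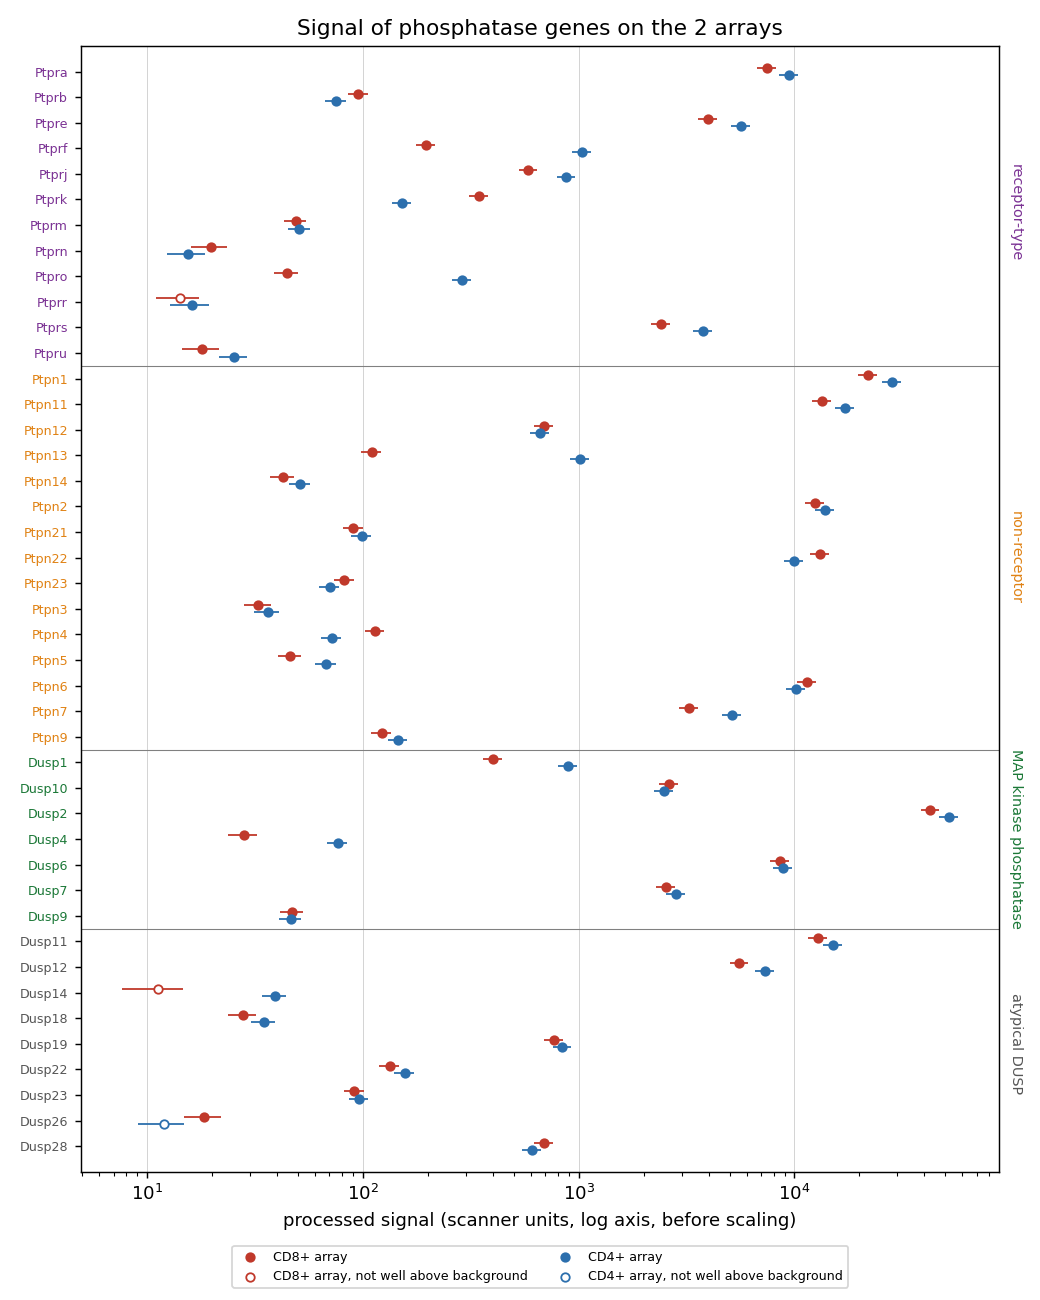
Processed signal (scanner units, log axis, before scaling) of the 43 phosphatase genes well above background on at least 1 array, grouped by family, on the CD8+ array (red) and the CD4+ array (blue). Bars are the scanner software's error of the spot, and open points are not well above background. Ptpn13, Ptpro, Ptprf and Dusp4 lie clearly to the right on the CD4+ array and Ptprk on the CD8+ array, while most pairs lie close together.

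The largest difference was that of Ptpn13. This gene encodes a large FERM and PDZ domain phosphatase (PTP-BL) that binds the death receptor Fas and dephosphorylates STAT proteins. Its signal was 110 ± 11.5 on the CD8+ array and 1011 ± 101 on the CD4+ array, a log2 difference of -3.03, or 8.15-fold higher on the CD4+ array. A second Ptpn13 probe was not well above background on either array, at 8.12 ± 3.22 on the CD8+ array and 11.7 ± 2.83 on the CD4+ array, so the difference rests on 1 probe.

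Ptpro, a receptor-type phosphatase best known from the podocytes of the kidney and also found in leukocytes, had a signal of 44.4 ± 5.53 on the CD8+ array and 287 ± 28.9 on the CD4+ array. It was 5.73-fold higher on the CD4+ array (log2 difference -2.52). Its second probe was below the background limit on both arrays, with 3.15 on the CD8+ array and 13.6 on the CD4+ array, so the difference rests on 1 probe.

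Ptprf encodes LAR, an adhesion phosphatase studied mostly at synapses and in insulin signalling. All 3 of its probes were measured above background on each array, and all 3 were higher on the CD4+ array. The brightest read 196 ± 19.9 on the CD8+ array and 1039 ± 104 on the CD4+ array, or 4.69-fold higher on the CD4+ array (log2 difference -2.23). The second had 85.8 on the CD8+ array and 522 on the CD4+ array (-2.43), and the dimmest had 40.5 on the CD8+ array and 80.2 on the CD4+ array (-0.81). The range of 1.62 between these probes was the largest of any member, and the mean over the 3 probes was -1.82, or 3.53-fold.

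Ptprk was the member with the largest difference in favour of the CD8+ array. It encodes a MAM-domain phosphatase that mediates homophilic adhesion, and a deletion of the rat gene accompanies the loss of helper T cells in LEC rats. Its brightest probe read 345 ± 34.7 on the CD8+ array and 152 ± 15.6 on the CD4+ array, a difference of 1.36 or 2.57-fold. The other probe measured on both arrays had 21.4 on the CD8+ array and 23.7 on the CD4+ array, a difference of 0.03. Another probe was above background on the CD8+ array alone, with 16.6 on the CD8+ array and 11.8 on the CD4+ array. The probes therefore disagreed, and the mean over the 2 measured probes was 0.70, or 1.62-fold.

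Dusp4, the nuclear MAP kinase phosphatase MKP-2, had a signal of 28.0 ± 4.28 on the CD8+ array and 76.4 ± 8.27 on the CD4+ array, or 2.41-fold higher on the CD4+ array (-1.27). Both signals were dim, and with normexp background correction the difference was -0.34, under 2-fold. Just short of the threshold lay Dusp1, the nuclear phosphatase MKP-1 that acts on p38, JNK and ERK, with 400 ± 40.1 on the CD8+ array and 891 ± 89.2 on the CD4+ array, 1.97-fold higher on the CD4+ array (-0.98). Dusp1 passed 2-fold under 3 other scalings: quantile normalization (-1.01), loess (-1.03) and a percentile of the detected probes (-1.03). It lay further below 2-fold with normexp (-0.76), with the authors' series values (-0.80) and with scaling to the median (-0.84). Dusp4 and Dusp1 each had 1 probe.

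**Figure D2:**
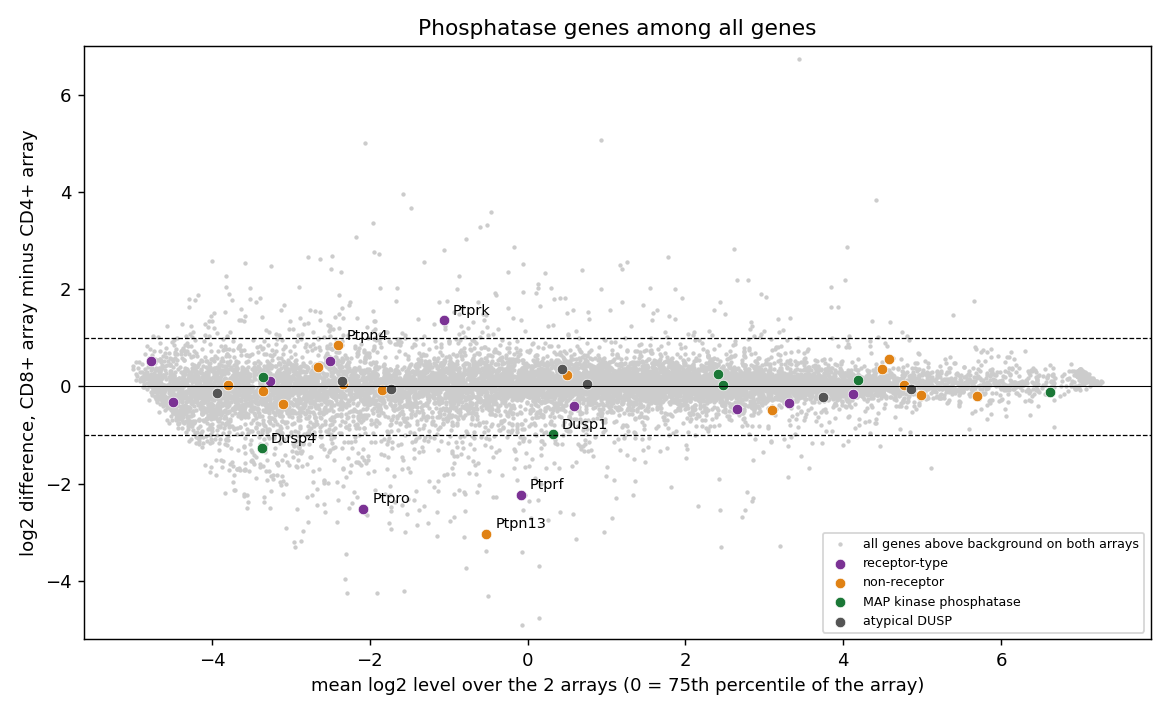
Log2 difference (CD8+ array minus CD4+ array) against the mean log2 level over both arrays, where 0 is the 75th percentile of an array, for all genes above background on both arrays (grey) and for the 40 phosphatase genes in 4 family colours. Dashed lines mark 2-fold. The members beyond 2-fold all lie left of 0 on the level axis, and the 20 members to the right of 0 all lie within 2-fold, as do 6511 of the 6686 genes there.

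The promoter windows of Ptpn13, Ptpro, Ptprf, Ptprk and Dusp1 are printed as sequence context for these genes. They are taken from RefSeq (build GRCm38.p6), run 5′ to 3′ in the direction of the gene, and cover 250 bases before and 50 after the annotated start. Capitals mark matches, on either strand and with overlaps allowed, to 6 short motifs: the CRE half-site TGACG, the AP-1 site TGANTCA, the Runx site TGTGGT, the NFAT core GGAAAA, the Sp1 box GGGCGG and the TATA box TATAAA.
Ptpn13, chr5:103424942-103425241, + strand: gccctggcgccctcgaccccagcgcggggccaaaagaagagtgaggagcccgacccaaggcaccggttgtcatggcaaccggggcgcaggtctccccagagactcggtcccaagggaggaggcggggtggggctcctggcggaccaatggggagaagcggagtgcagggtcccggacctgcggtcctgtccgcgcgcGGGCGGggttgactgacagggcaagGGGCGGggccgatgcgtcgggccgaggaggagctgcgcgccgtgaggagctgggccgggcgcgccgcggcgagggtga
Ptpro, chr6:137252049-137252348, + strand: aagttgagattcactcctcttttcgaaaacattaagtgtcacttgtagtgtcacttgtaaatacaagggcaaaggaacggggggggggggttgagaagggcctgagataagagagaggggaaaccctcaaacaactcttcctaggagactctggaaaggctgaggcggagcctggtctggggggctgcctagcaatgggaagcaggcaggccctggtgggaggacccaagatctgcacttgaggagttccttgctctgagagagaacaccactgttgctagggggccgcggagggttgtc
Ptprf, chr4:118291348-118291647, - strand: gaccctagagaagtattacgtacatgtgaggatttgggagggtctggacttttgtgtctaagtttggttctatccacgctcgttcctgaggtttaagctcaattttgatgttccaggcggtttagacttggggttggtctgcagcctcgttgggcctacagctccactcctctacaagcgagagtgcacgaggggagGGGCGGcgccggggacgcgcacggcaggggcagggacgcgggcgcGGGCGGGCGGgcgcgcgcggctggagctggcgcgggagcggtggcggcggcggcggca
Ptprk, chr10:28074570-28074869, + strand: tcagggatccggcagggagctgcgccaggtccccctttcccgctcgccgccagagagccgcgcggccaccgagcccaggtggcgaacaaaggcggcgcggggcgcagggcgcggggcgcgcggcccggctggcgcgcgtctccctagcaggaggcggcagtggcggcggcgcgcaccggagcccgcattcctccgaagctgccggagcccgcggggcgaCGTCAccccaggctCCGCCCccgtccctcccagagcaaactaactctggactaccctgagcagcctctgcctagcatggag
Dusp1, chr17:26508423-26508722, - strand: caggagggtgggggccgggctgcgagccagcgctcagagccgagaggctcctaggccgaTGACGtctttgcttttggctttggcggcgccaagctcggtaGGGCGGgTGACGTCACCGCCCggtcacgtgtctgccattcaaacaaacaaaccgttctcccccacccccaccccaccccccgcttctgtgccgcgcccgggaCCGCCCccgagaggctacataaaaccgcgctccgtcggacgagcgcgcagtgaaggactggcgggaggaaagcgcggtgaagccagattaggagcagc

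The Dusp1 window held 3 CRE half-sites, of which those at -143 and -140 from the start overlap on opposite strands, and 3 Sp1 boxes. The Ptprf window held 3 Sp1 boxes, the Ptpn13 window 2, and the Ptprk window 1 Sp1 box and 1 CRE half-site. The Ptpro window held no match to any of the 6 motifs. It also had the lowest GC content of these windows, 54.7%, against 64% to 75% for the others and a median of 52.7% over all 32851 windows in the table. Over all windows, 20.8% held the CRE half-site, 35.7% the Sp1 box, 16.8% the Runx site, 7.81% the AP-1 site, 23.4% the NFAT core and 13.6% the TATA box. None of the 5 printed windows held the Runx, AP-1, NFAT or TATA letters. Over the 66 windows of Ptpn, Ptpr and Dusp genes in the table, 57.6% held the Sp1 box, 36.4% the CRE half-site and 3.03% the TATA box. These matches describe the letters and are no evidence of binding.

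Among the non-receptor phosphatases, 15 of 16 genes were above background on both arrays (93.8%, beside 69.6% of all named genes). Their median difference was 0.03, and 14 of the 15 lay within 2-fold. The other 1 was at least 2-fold higher on the CD4+ array (6.67%, beside 3.83% of all genes), and the shares were not tested. Several of the non-receptor genes restrain T cell receptor signalling. Ptpn22 encodes PEP, a phosphatase that inactivates Lck and Zap70 in company with the kinase Csk. It read 13145 ± 1310 on the CD8+ array and 9988 ± 999 on the CD4+ array, 1.49-fold higher on the CD8+ array (0.57). Ptpn6, which encodes SHP-1, the SH2 phosphatase recruited by inhibitory receptors, had 11447 on the CD8+ array and 10137 on the CD4+ array (0.35), and its second probe gave 0.46. Both differences exceeded the SD between probes over all genes (0.23), and that of Ptpn6 did not exceed the SD over the members (0.39).

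Ptpn11, which encodes the related SHP-2, leaned the other way. Its signal was 13387 on the CD8+ array and 17137 on the CD4+ array (-0.18), and its 3 probes ranged from -0.54 to -0.18. The difference of the brightest probe was smaller than the SD between probes. Ptpn2, whose product TC-PTP acts on JAK1, JAK3 and STAT proteins, had 12461 on the CD8+ array and 13799 on the CD4+ array (0.03). Ptpn1, the relative of Ptpn2 at the endoplasmic reticulum (PTP1B), had 21850 on the CD8+ array and 28329 on the CD4+ array (-0.20), with 0.05 for its second probe. Both genes of the TC-PTP and PTP1B pair thus lay within the probe spread.

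Ptpn7 encodes HePTP, a haematopoietic phosphatase that binds ERK and p38. It read 3257 on the CD8+ array and 5141 on the CD4+ array, 1.40-fold higher on the CD4+ array (-0.48), and its second probe gave -0.32. Ptpn12, which encodes PTP-PEST, a regulator of the cytoskeleton, had 693 on the CD8+ array and 663 on the CD4+ array, and its 2 probes gave 0.24 and 0.26. The probes of each of these genes agreed in sign.

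Ptpn4 was the non-receptor gene with the largest lean to the CD8+ array. It encodes a FERM and PDZ domain phosphatase that can dephosphorylate the zeta chain of the T cell receptor. Its signal was 114 ± 11.8 on the CD8+ array and 71.7 ± 7.66 on the CD4+ array, or 1.80-fold higher on the CD8+ array (0.85, and 0.53 with normexp). Its close relative Ptpn3 had 32.8 on the CD8+ array and 36.2 on the CD4+ array (0.03). Ptpn4 was thus higher on the CD8+ array and Ptpn3 close to 0.

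The remaining non-receptor genes were dim. Ptpn23 (HD-PTP, a protein of endosomal sorting) had 82.0 on the CD8+ array and 70.1 on the CD4+ array (0.40). Ptpn5 (STEP, known from neurons) had 46.1 on the CD8+ array and 67.5 on the CD4+ array (-0.37, and -0.10 with normexp). Ptpn9 (-0.08), Ptpn14 (-0.09) and Ptpn21 (0.04) differed by less than the probe spread. Ptpn20 was not well above background on either array.

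Receptor-type genes had the widest spread of differences, with an SD of 1.14 over the 11 genes above background on both arrays, against 0.88 over the non-receptor genes and 0.54 over all genes. Their median was -0.32, 7 of the 11 were higher on the CD4+ array (63.6%, beside 46.3% of all genes), and 3 were at least 2-fold apart, beside 5.77% of all genes. These shares rest on few genes and their difference was not tested. Without the filter on dim probes the median of all 19 was 0.12. The broadly expressed Ptpra, whose product activates kinases of the Src family, had 7461 on the CD8+ array and 9417 on the CD4+ array (-0.16). Its relative Ptpre read 3979 on the CD8+ array and 5674 on the CD4+ array (-0.34), and the second Ptpre probe gave -0.30.

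Ptprj encodes CD148, a transmembrane phosphatase of leukocytes that can act on Src family kinases. Its brighter probe had 585 on the CD8+ array and 878 on the CD4+ array, 1.33-fold higher on the CD4+ array (-0.41). Its dim probe was above background on the CD8+ array alone, at 17.1 on the CD8+ array and 9.28 on the CD4+ array, so the probes differed in sign. Ptprs, a member of the LAR family like Ptprf and known as a surface protein of plasmacytoid dendritic cells, read 2408 on the CD8+ array and 3755 on the CD4+ array (-0.46), and -0.65 with its second probe. Both measured LAR family genes were therefore higher on the CD4+ array, and Ptprd, of the same family, was not well above background on either array.

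The other receptor-type genes were dim on both arrays. Ptprb, which encodes the endothelial phosphatase VE-PTP, had 95.1 on the CD8+ array and 75.1 on the CD4+ array (0.52). Ptprn, which encodes the catalytically inactive IA-2 of secretory granules, had 19.7 ± 3.67 on the CD8+ array and 15.5 ± 3.13 on the CD4+ array (0.52, and 0.23 with normexp). Of the MAM-domain relatives of Ptprk, Ptprm had 48.9 on the CD8+ array and 50.7 on the CD4+ array (0.12) and Ptpru 18 on the CD8+ array and 25.3 on the CD4+ array (-0.32, but 0.10 with normexp). Both differences were smaller than that of the brightest Ptprk probe, while the other measured Ptprk probe, at 0.03, was below that of Ptprm. Ptprt was not well above background on either array. Ptprr, a phosphatase that docks to MAP kinases, was above background on the CD4+ array alone, with 14.2 on the CD8+ array and 16.1 on the CD4+ array, and the limit of detection leaves no fold. Ptprd, Ptprg, Ptprh, Ptprn2, Ptprq, Ptprt and Ptprz1, known from brain, gut, endocrine or inner ear tissue among others, were well above background on neither array.

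**Figure D3:**
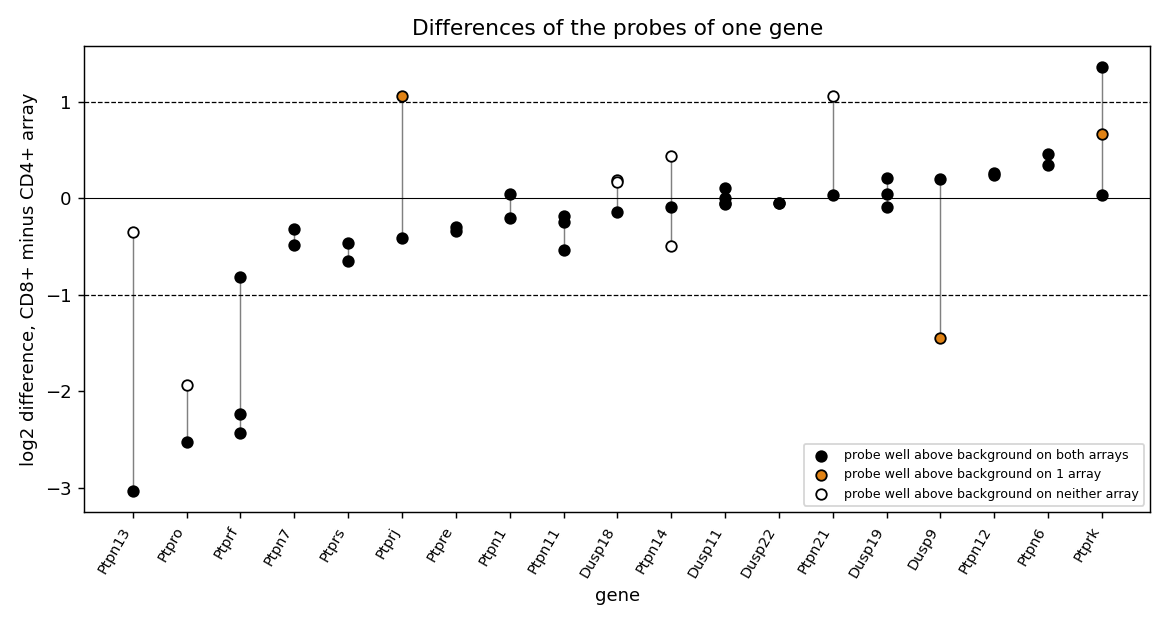
Log2 difference (CD8+ array minus CD4+ array) of each probe for the 19 phosphatase genes with several probes that were measured on both arrays, ordered by the difference of the brightest probe. Filled points are probes well above background on both arrays, orange points on 1 array and open points on neither, and dashed lines mark 2-fold. The 3 Ptprf probes all lie below 0, while the Ptprk probes run from 0.03 to 1.36.

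Among the MAP kinase phosphatases, 7 of 9 genes were above background on both arrays (77.8%, beside 69.6% of all named genes). Their median was 0.02. Dusp4 was the only one past 2-fold, higher on the CD4+ array (14.3%, beside 3.83% of all genes). The shares rest on few genes and were not tested. The bright members Dusp2, Dusp6, Dusp7 and Dusp10 differed little. Dusp2 (PAC-1), an ERK-directed nuclear phosphatase first found in activated T cells, had 42663 on the CD8+ array and 51879 on the CD4+ array (-0.11). Dusp6 (MKP-3), a cytoplasmic phosphatase selective for ERK, had 8562 on the CD8+ array and 8823 on the CD4+ array (0.13). Dusp7, its relative, had 2528 on the CD8+ array and 2825 on the CD4+ array (0.02).

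Dusp10 (MKP-5), which acts on JNK and p38, had 2620 on the CD8+ array and 2475 on the CD4+ array, a difference of 0.26, slightly beyond the probe SD of 0.23. Dusp9 had 47.1 on the CD8+ array and 46.3 on the CD4+ array (0.20), while its second probe was above background on the CD4+ array alone, with 9.96 on the CD8+ array and 30.7 on the CD4+ array. Dusp8 and Dusp16, which act on JNK and p38, were well above background on neither array. Of the nuclear phosphatases named here, each with 1 probe, Dusp1 and Dusp4 were higher on the CD4+ array and Dusp2 lay within the probe spread. Dusp1 was just under 2-fold, and the dim Dusp4 gave -0.34 with normexp.

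Of the 14 atypical genes, 7 were measured on both arrays, and these had the smallest SD of any family, 0.19, beside 0.54 over all genes. All 7 lay within 2-fold, as did 11267 of the 11957 genes measured on both arrays. This SD does not cover the whole family. It leaves out 5 genes below the limit on both arrays. It also leaves out Dusp14, at least 2.35-fold higher on the CD4+ array, and Dusp26, at least 1.61-fold higher on the CD8+ array. Dusp11, an RNA phosphatase, had 12896 on the CD8+ array and 15103 on the CD4+ array (-0.05), and its 4 probes ranged from -0.06 to 0.11. Dusp12, which carries a zinc-binding domain, had 5556 on the CD8+ array and 7314 on the CD4+ array (-0.22). Dusp22, which can dephosphorylate Lck, had 133 on the CD8+ array and 156 on the CD4+ array, and both of its probes gave -0.05. The probes of Dusp11 and Dusp22 repeated these near-zero differences.

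Dusp28 had 690 on the CD8+ array and 610 on the CD4+ array, 1.28-fold higher on the CD8+ array (0.35). Dusp19 (0.05), Dusp23 (0.11) and Dusp18 (-0.14) lay within the probe spread. Dusp14 (MKP-6), a phosphatase that binds the costimulatory receptor CD28 and restrains the TAK1 adaptor TAB1, was above background on the CD4+ array alone. It had 11.2 ± 3.51 on the CD8+ array and 39.0 ± 5.09 on the CD4+ array, at least 2.35-fold higher on the CD4+ array, and its second probe was also above background on that array alone, with 3.41 on the CD8+ array and 24.0 on the CD4+ array. Among all genes above background on the CD4+ array alone, 16.4% had a bound of 2-fold, and with normexp the Dusp14 bound was 1.09-fold. Such a bound takes the dim array at no less than the lowest level that it counted as well above background.

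Dusp26 was above background on the CD8+ array alone, with 18.4 ± 3.61 on the CD8+ array and 12.0 ± 2.90 on the CD4+ array, at least 1.61-fold higher on the CD8+ array. Of the genes above background on the CD8+ array alone, 30.9% had a bound of 2-fold, and Dusp26 was not among them. Dusp3 (VHR), Dusp13, Dusp15, Dusp21 and Dusp27 were well above background on neither array. In all, 15 members were below this limit on both arrays, so a difference of theirs was not detectable at these signals.

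The larger differences lay among phosphatases with a lower mean level over both arrays, and such genes also differed more over the whole array. A low signal on 1 array lowers this mean, so the split by level is not independent of the difference. On the CD4+ array, Ptpn13 (1011) and Ptprf (1039) had signals above that array's 75th percentile of 508.4. Of the 20 members with a mean level above the 75th percentile, all lay within 2-fold, as did 6511 of the 6686 genes at such levels. The SD of the differences was 0.36 over these members and 0.41 over these genes. The 20 measured members at or below that level had an SD of 1.12, against 0.66 over the 5271 such genes, and they included all 5 members at least 2-fold apart. Of the 5271 genes, 515 were at least 2-fold apart, and the difference between these shares was not tested. With brighter probes alone, which kept 24 members, Ptprk and Ptprf were the members past 2-fold. Of all genes kept by that filter, 1.34% were at least 2-fold higher on the CD8+ array and 1.96% on the CD4+ array.

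Phosphatases of related families outside the symbol rule also lay mostly within 2-fold. Of 27 such listed genes, 24 had a named probe and 22 were above background on both arrays, with a median of -0.03. At least 2-fold higher on the CD8+ array were 2 genes (9.09%, beside 1.94% of all genes). None was at least 2-fold higher on the CD4+ array, beside 3.83% of all genes. These shares rest on few genes and were not tested. Pald1, an endothelial phosphatase-like gene, was 2.56-fold higher on the CD8+ array, with 116 on the CD8+ array and 51.2 on the CD4+ array. Cdc14b, which counteracts cyclin-dependent kinases, was 2.08-fold higher there, with 923 on the CD8+ array and 502 on the CD4+ array. Cdc25a, which activates cyclin-dependent kinases, had 18.3 on the CD8+ array and 40.2 on the CD4+ array (-0.96).

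The kinases and adaptors that these phosphatases oppose also differed little. Of 27 tyrosine kinase and adaptor genes of T cell receptor signalling, 25 were above background on both arrays with a median of 0.08. Past 2-fold was 1 of these (4%, beside 5.77% of all genes), the adaptor gene Gab3, at 2.11-fold higher on the CD8+ array. Lck differed by 0.31, Zap70 by 0.04 and Csk by 0.11. All 11 JAK and STAT genes lay within 2-fold, beside 11267 of the 11957 genes above background on both arrays. The JAK and STAT median was 0.07, and their largest difference was that of Stat4, at 0.82.

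MAP kinases are the substrates of the MAP kinase phosphatases, and MAP kinase kinases activate them. Of 17 genes of these kinases, 16 were above background on both arrays with a median of -0.04. At least 2-fold higher on the CD4+ array were 2 genes, or 12.5%, beside 3.83% of all genes, and this was not tested. These were Mapk11 (p38 beta), with 404 on the CD8+ array and 1338 on the CD4+ array (-1.55), and Mapk12 (p38 gamma), with 63.2 on the CD8+ array and 185 on the CD4+ array (-1.38). The other p38 genes differed less, Mapk14 by -0.10 and Mapk13 by -0.24, and the ERK gene Mapk3 differed by -0.04.

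Early and feedback genes that ERK induces differed in both directions. Of 24 genes, 18 were above background on both arrays, 8 of them higher on the CD8+ array and 10 on the CD4+ array. Their median was -0.20, beside 0.02 over all genes, and this was not tested. At least 2-fold higher on the CD8+ array was 1 gene (5.56%, beside 1.94% of all genes), and 2 were at least 2-fold higher on the CD4+ array (11.1%, beside 3.83%). Ier3, a stress-induced survival gene, was 6.37-fold higher on the CD8+ array. Spry1, an inhibitor of ERK signalling, was 2.60-fold and the nuclear receptor gene Nr4a1 2.34-fold higher on the CD4+ array.

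Lists of marker genes for further cell types are grouped below by the sign of their median difference. Their sums and their numbers above background did not always go the same way as the median. The part of such cells in the results was not tested. On the side of Ptpn13, Ptpro, Ptprf, Dusp4, Dusp14 and Dusp1, regulatory T cell markers above background numbered 8 on the CD8+ array and 12, all those with a named probe, on the CD4+ array. Their summed level, in multiples of the array's 75th percentile, was 45.0 on the CD8+ array and 114 on the CD4+ array. Most of both sums came from Tnfrsf18, with 16138 on the CD8+ array and 33306 on the CD4+ array. Of the 8 measured on both arrays, 7 were higher on the CD4+ array (87.5%, beside 46.3% of all genes). Foxp3, the defining transcription factor of regulatory T cells, was not well above background on the CD8+ array, with 5.51 there and 354 on the CD4+ array. The summed level of the 8 NK cell markers was 13.8 on the CD8+ array and 27.1 on the CD4+ array, with 6 above background on each. Most of both NK sums came from Tyrobp (3997 on the CD8+ array and 10166 on the CD4+ array) and Fcer1g (1746 and 2687). Of the 6 NK markers measured on both arrays, 5 were higher on the CD4+ array (83.3%, beside 46.3% of all genes). The other, Klra8, was higher on the CD8+ array (0.44). That of the 8 plasma cell markers was 5.19 on the CD8+ array, with 7 above background, and 8.04 on the CD4+ array, with 8. The 11 named dendritic cell markers summed to 49.5 on the CD8+ array, with 10 above background, and 50.7 on the CD4+ array, with 11, and their median difference was -0.84. They went in both directions. Of the 10 measured on both arrays, 4 were at least 2-fold higher on the CD4+ array (40%, beside 3.83% of all genes). Another 2 were at least 2-fold higher on the CD8+ array (20%, beside 1.94%), namely Cd207 (3.58) and Ccr9 (2.65). The 12 macrophage and monocyte markers summed to 97.3 on the CD8+ array and 118 on the CD4+ array.

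On the side of Ptprk, Ptpn4, Ptpn22 and Ptpn6, the 13 B cell markers summed to 44.2 on the CD8+ array and 34 on the CD4+ array, with a median difference of 0.51 and none beyond 2-fold. The 9 named platelet and erythroid markers had a median of 0.31 and the 10 neutrophil markers one of 0.17 over those above background on both arrays. Platelet and erythroid markers above background numbered 7 on the CD8+ array and 6 on the CD4+ array, with sums of 5.22 on the CD8+ array and 5.91 on the CD4+ array. Neutrophil markers above background numbered 6 on the CD8+ array and 9 on the CD4+ array, with sums of 3.14 on the CD8+ array and 2.76 on the CD4+ array. Of the 3 above background on the CD4+ array alone, Ngp had 14.6 on the CD8+ array and 18.1 on the CD4+ array. Retnlg had 14.7 on the CD8+ array and 21.3 on the CD4+ array, and Mmp9 had 9.85 and 40. No marker list separated the arrays as far as that of regulatory T cells, with a median of -2.40.

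**Figure D4:**
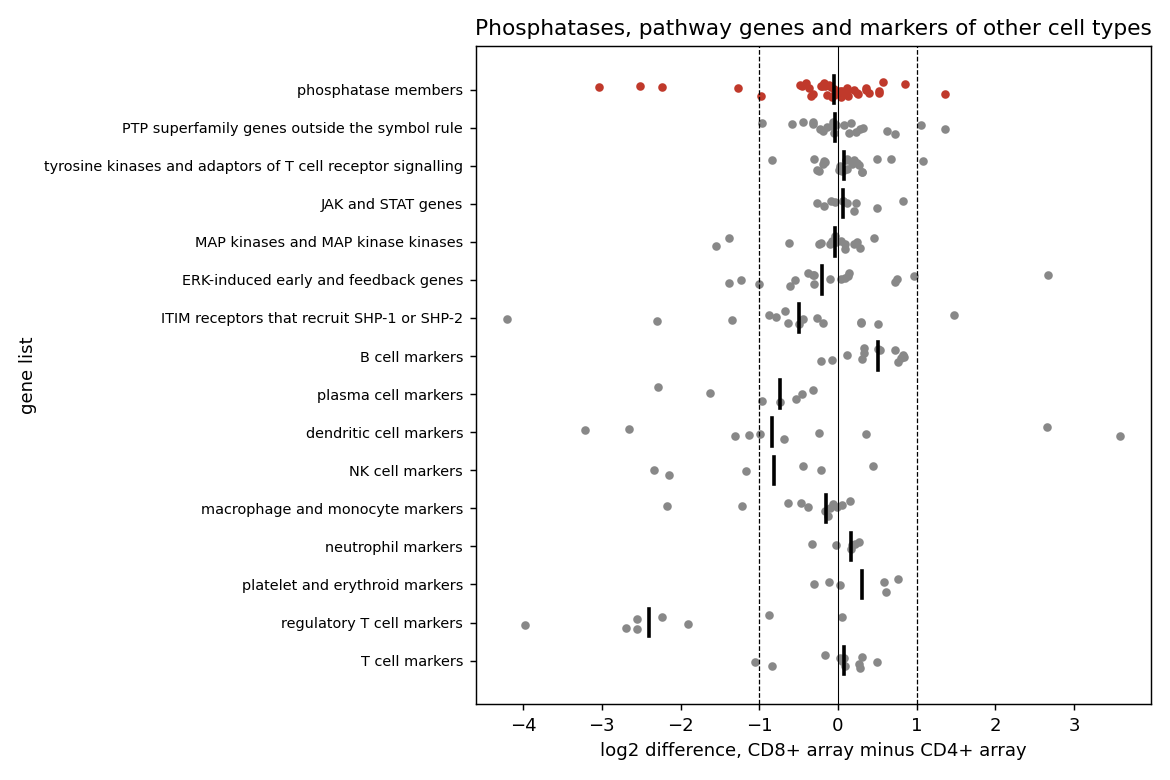
Log2 difference (CD8+ array minus CD4+ array) of the 40 phosphatase genes (red) and of the genes of each list (grey) that were above background on both arrays, with bars at the medians and dashed lines at 2-fold. The phosphatases centre on -0.05 with a tail to the CD4+ side, and the regulatory T cell markers centre on -2.40.

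**Figure D5:**
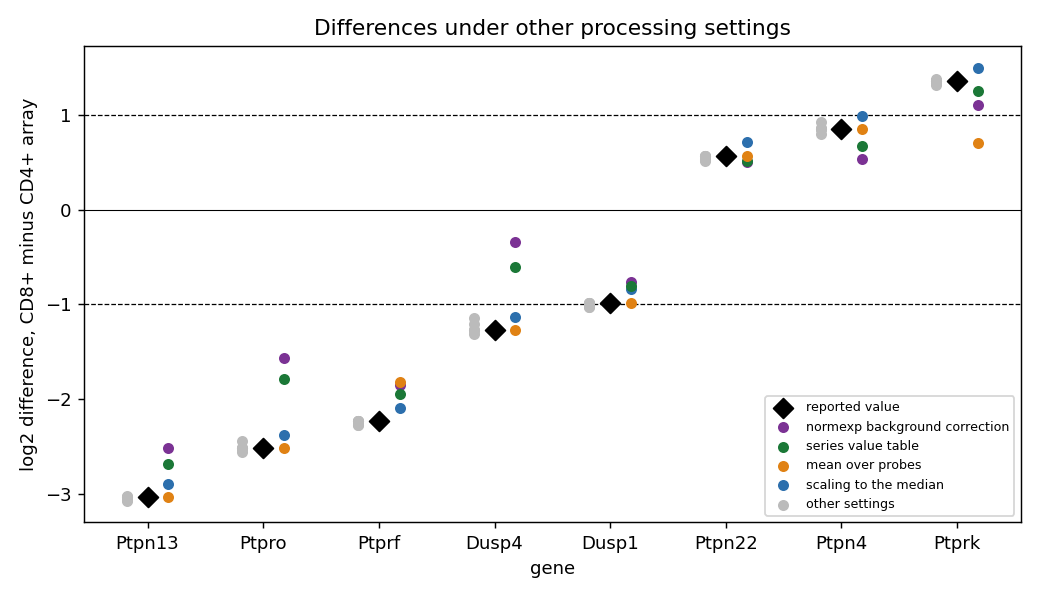
Log2 difference (CD8+ array minus CD4+ array) of 8 phosphatase genes as reported (diamonds) and under 11 other processing settings (points), with dashed lines at 2-fold. Ptpn13, Ptpro and Ptprf stay below -1 in every setting that gave a value, while Dusp4 reaches -0.34 with normexp and Ptprk 0.70 with the mean over its probes.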

How the data were processed

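Total RNA of sorted splenic T cells was labelled with Cy3 and hybridised to 1 Agilent array per cell type, per the labels' protocols. The deposited scanner files give linear intensity per spot, made with Feature Extraction 10.1.1.1 per the file headers, whereas the submitters' processing notes name version 9.1. The deposited processed signal is a background-subtracted intensity, unscaled between arrays. The deposited flags for spots well above background, saturated or outlying are other values of 0 or 1. The authors' series table equals the median spot intensity at 45018 of 45018 spots on each array.

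From these files, log2 of the processed signal minus each array's 75th percentile over the 43379 non-control spots was used, and spots marked as outliers were left out. Probes were named by accession in a RefSeq table of GRCm38.p6, which named 24844 of 41174 probes (60.3%). The file headers name build mm9, so no probe coordinates were taken from that table, and promoter windows came from a separate RefSeq table with coordinates of GRCm38.p6. A gene took its brightest probe above background on both arrays, or else on 1. The threshold was 2-fold, with no test. The 10 largest differences per direction, all members beyond 2-fold or measured on 1 array, and phosphatases with known T cell roles were to be named. Other genes were named by list, up to 3 of the largest differences, and Lck, Zap70, Csk, Mapk13, Mapk14 and Mapk3 were added after their values were seen. Members and lists were chosen with earlier results of these data known.

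Alternatives were normexp (offset 50, on the median signal since the files hold no mean signal), quantile normalization, loess (span 0.3), scaling to the median or to detected probes, the series values, no or a stricter filter on dim probes (within 2 log2 units below the percentile), saturated spots out, outlier spots kept and the mean over probes. The computation was tested on simulated data. Python 3.11.15, numpy 2.4.6, pandas 2.3.3, matplotlib 3.10.9, R 4.3.3 and limma 3.58.1 were used.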

Additional observations from a re-analysis of the deposited data

How the results depend on the processing

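Of 424 values of the 40 genes under the 11 alternatives, 408 moved by less than the SD between probes (0.23), 16 moved further and 0 of the members beyond 2-fold changed sign. Part of these values could not move. No member spot was saturated or marked as an outlier, so leaving out or keeping such spots changed no member. The 2 filters on dim probes only keep or drop genes, and the mean over probes leaves genes with 1 measured probe unchanged. The 408 therefore overstate how stable the values were. The number of members at least 2-fold higher on the CD8+ array was 2 without the filter on dim probes, where Dusp27 (below background on both arrays) joined Ptprk, and 0 with the mean over probes. Over all genes, the share at least 2-fold higher on the CD8+ array was 3.59% without that filter and 1.92% with the mean over probes, against 1.94% as reported. The number at least 2-fold higher on the CD4+ array was 1 with brighter probes, since Ptpn13, Ptpro and Dusp4 did not pass that filter, 3 with normexp and with the series values, both without Dusp4, and 5 under 4 settings: without the filter on dim probes, where Dusp14 joined, and with quantile normalization, loess and the percentile over detected probes, where Dusp1 joined. The median of the members was 0.09 with scaling to the median, which moved all genes by 0.14, and 0.01 with normexp. Normexp gave -2.51 for Ptpn13, -1.85 for Ptprf, -1.56 for Ptpro and 1.11 for Ptprk, while the series values gave -2.68 for Ptpn13, -1.94 for Ptprf, -1.79 for Ptpro and -0.60 for Dusp4. Over all genes, normexp gave 122 genes at least 2-fold higher on the CD8+ array and 219 on the CD4+ array, against 232 and 458. The share of all genes at least 2-fold higher on the CD4+ array was 3.83% as reported, 1.83% with normexp and 2.24% with the series values. It was 1.96% with brighter probes and 7.46% without the filter on dim probes. Quantile normalization gave 3.52%, loess 3.76% and the percentile over detected probes 4.1%. Small differences such as those of Ptpn2 (-0.03 to 0.17), Dusp7 (-0.03 to 0.16), Dusp22 (-0.09 to 0.09) and Ptpru (-0.36 to 0.10) took both signs. The cause was not tested. Signals near the background limit set the precision of the dim genes, whose software errors reached 0.40 for Ptprn. No paired analysis was possible because each group has 1 array.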

Other observations

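Receptors with inhibitory tyrosine motifs, which recruit the phosphatases SHP-1 and SHP-2 to the membrane, differed in both directions. Of 20 such listed genes, 18 had a named probe and 15 were above background on both arrays, with a median difference of -0.49. At least 2-fold higher on the CD8+ array was 1 gene, Cd72, a receptor known from B cells, with 4260 on the CD8+ array and 1724 on the CD4+ array. At least 2-fold higher on the CD4+ array were 3 genes. Klrg1, a lectin-like receptor of antigen-experienced lymphocytes, had 35.2 on the CD8+ array and 737 on the CD4+ array. Pdcd1, the gene of PD-1, had 441 on the CD8+ array and 2454 on the CD4+ array, and Cd300lf, a receptor of myeloid cells, had 466 on the CD8+ array and 1333 on the CD4+ array. Over all genes above background on both arrays, 1.94% were at least 2-fold higher on the CD8+ array and 3.83% on the CD4+ array.

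Ubash3a and Ubash3b, which encode the phosphatase-like suppressors STS-2 and STS-1 of T cell receptor signalling, differed from each other. Ubash3a had 1038 on the CD8+ array and 1065 on the CD4+ array (0.14), and Ubash3b had 2613 on the CD8+ array and 4418 on the CD4+ array (-0.58). Ptp4a3, a farnesylated phosphatase, had 3322 on the CD8+ array and 2449 on the CD4+ array (0.62). These genes were chosen after their values were seen.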
